A study of Mus musculus with 16 samples.

Results

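Motile cilium and axoneme genes were examined in RNA-seq libraries of mouse lung. The members were the rows of the table whose mouse symbol belonged to the Dnah, Dnai or Dnaic, Dnaaf, Cfap, Rsph, Tekt or Drc families, and Foxj1. This rule, which used names and no measured value, found 70 of 53647 genes: 31 Cfap genes, 15 Dnah genes, the antisense transcript Dnah2os, 8 Rsph genes, 5 Tekt genes, 4 Dnaaf genes, 3 Drc genes, 2 Dnaic genes and Foxj1. Annotation listed 69 of them as protein coding.

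The 16 libraries fell into 4 groups of 4: control lungs, lungs given bleomycin, lungs given bleomycin and the vector labelled Ad-GFP, and lungs given bleomycin and the vector labelled Ad-ATP12A (in such names Ad usually stands for adenovirus). Bleomycin is a DNA-damaging drug used to induce lung fibrosis in mice, GFP is a fluorescent control protein, and ATP12A is the non-gastric proton-potassium pump. Each group held 2 libraries of each of 2 batches as the titles number them, here written b1 or b2 with the replicate number r1 or r2. The labels state no strain, genotype, sex, age, dose, day, promoter of the vectors or species of the ATP12A insert, do not say what a batch is, and do not say whether the controls received a sham instillation. They also do not say that libraries came from separate animals, so the p-values measure the spread between libraries, which may be partly technical. Values were TPM, the level of a transcript per its length, scaled to the same total in each library, and differences were taken on the log2(TPM + 1) scale, which understates changes of low genes. The files hold no read counts, so the depth behind each value is unknown and no counting interval can be given. Each library had 15537 to 16336 genes at 1 TPM or more. Atp12a was 5.13 and 2.96 TPM in the Ad-ATP12A libraries of batch 1, 29.02 and 25.70 TPM in those of batch 2, and at most 0.20 TPM in the other 12 libraries. 3 libraries stood apart by the club cell secretoglobin Scgb1a1: control b2r1 had 441 TPM, bleomycin b2r2 128 TPM and Ad-GFP b1r1 295 TPM, while every other library had at least 24870 TPM. Some results below that depend on these libraries are given without them as well.

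A motile cilium is built on the axoneme, a ring of doublet microtubules around a central pair. Outer and inner dynein arms, motors assembled in the cytoplasm with the help of assembly factors, slide the doublets against each other. Radial spokes and the nexin-dynein regulatory complex turn that sliding into a regulated beat, and tektins and many Cfap proteins line the inside of the doublets or stabilise them. In the lung these structures are carried by the multiciliated cells of the conducting airways, which move mucus. Foxj1 is the forkhead factor that drives the motile cilium programme, and RFX factors, which bind X-box elements, act with it.

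Because the members share a regulatory programme in textbook accounts, their promoters were searched for the RFX core GTTGCC, a longer X-box stretch GTTGCCATG and the forkhead core GTAAACA, on both strands, in RefSeq windows of 250 bases before to 50 bases after each annotated start (build GRCm38.p6, an earlier build than the one the values were made on). Windows were at hand for 56 members. GTTGCC was present in 22 of the 56, or 39.3%, and in 14.1% of 27025 genes with a window. GTTGCCATG, which contains GTTGCC, was present in 3 members, or 5.36%, and in 0.877% of genes. GTAAACA was present in 4 members, or 7.14%, and in 4.05% of genes. A match describes the letters and does not show that a factor binds there. Stretches before the start are shown for 4 members: Cfap58, which differed between groups, Cfap161, which differed between batches and holds 3 copies, Tekt2, which was close to the threshold in one comparison, and Cfap298, for which 4 matches were found and whose stretch shows 2 of them, facing each other. They read 5′ to 3′ on the gene's strand, with GTTGCC or its reverse complement GGCAAC in capitals.
Cfap58 (chr19:47937623-47937688, plus strand): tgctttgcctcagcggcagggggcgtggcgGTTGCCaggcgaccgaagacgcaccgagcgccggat
Cfap161 (chr7:83794843-83794908, minus strand): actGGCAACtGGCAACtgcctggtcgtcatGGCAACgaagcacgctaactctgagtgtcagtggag
Tekt2 (chr4:126325749-126325814, minus strand): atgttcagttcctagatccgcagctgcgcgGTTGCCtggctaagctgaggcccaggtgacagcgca
Cfap298 (chr16:90934874-90934939, minus strand): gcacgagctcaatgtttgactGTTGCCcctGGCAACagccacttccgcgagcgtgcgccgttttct

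Most of the axoneme was represented in lung RNA at modest levels. A filter of at least 1 TPM in at least 4 libraries kept 65 of the 70 members. Of the 5 that did not pass, Dnah14 averaged 0.74 TPM, Tekt3 0.36 TPM, Dnah17 0.28 TPM and Rsph6a 0.01 TPM over the 16 libraries, and Cfap97d1 was listed at 0 in every library. Dnah17 and Rsph6a are known from the sperm flagellum. Of the male germ cell list, 1 of 13 genes averaged at least 1 TPM, the protamine gene Prm2 reached at most 0.36 TPM and Tnp1 was listed at 0 throughout.

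The 70 members together summed to 949, 862, 855 and 1203 TPM in the control libraries b1r1, b1r2, b2r1 and b2r2 (967 ± 163, SD, n = 4). In the same order the bleomycin libraries summed to 919, 922, 852 and 674 TPM (842 ± 117), the Ad-GFP libraries to 1353, 758, 787 and 712 TPM (902 ± 302), and the Ad-ATP12A libraries to 1259, 1094, 595 and 590 TPM (884 ± 344). The 4 groups overlapped. Without the 3 libraries low in Scgb1a1, the SD over the remaining 3 libraries was 177 TPM for control, 39.8 TPM for bleomycin and 37.5 TPM for Ad-GFP, so the wide spread of the Ad-GFP group rested on b1r1, while the Ad-ATP12A group holds none of the 3 and kept its SD of 344 TPM. In the Ad-ATP12A group both batch 1 libraries lay above every bleomycin library, and both batch 2 libraries lay below every other library of the series. In bulk tissue, fewer ciliated cells and less cilium RNA per cell cannot be told apart.

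**Figure D1:**
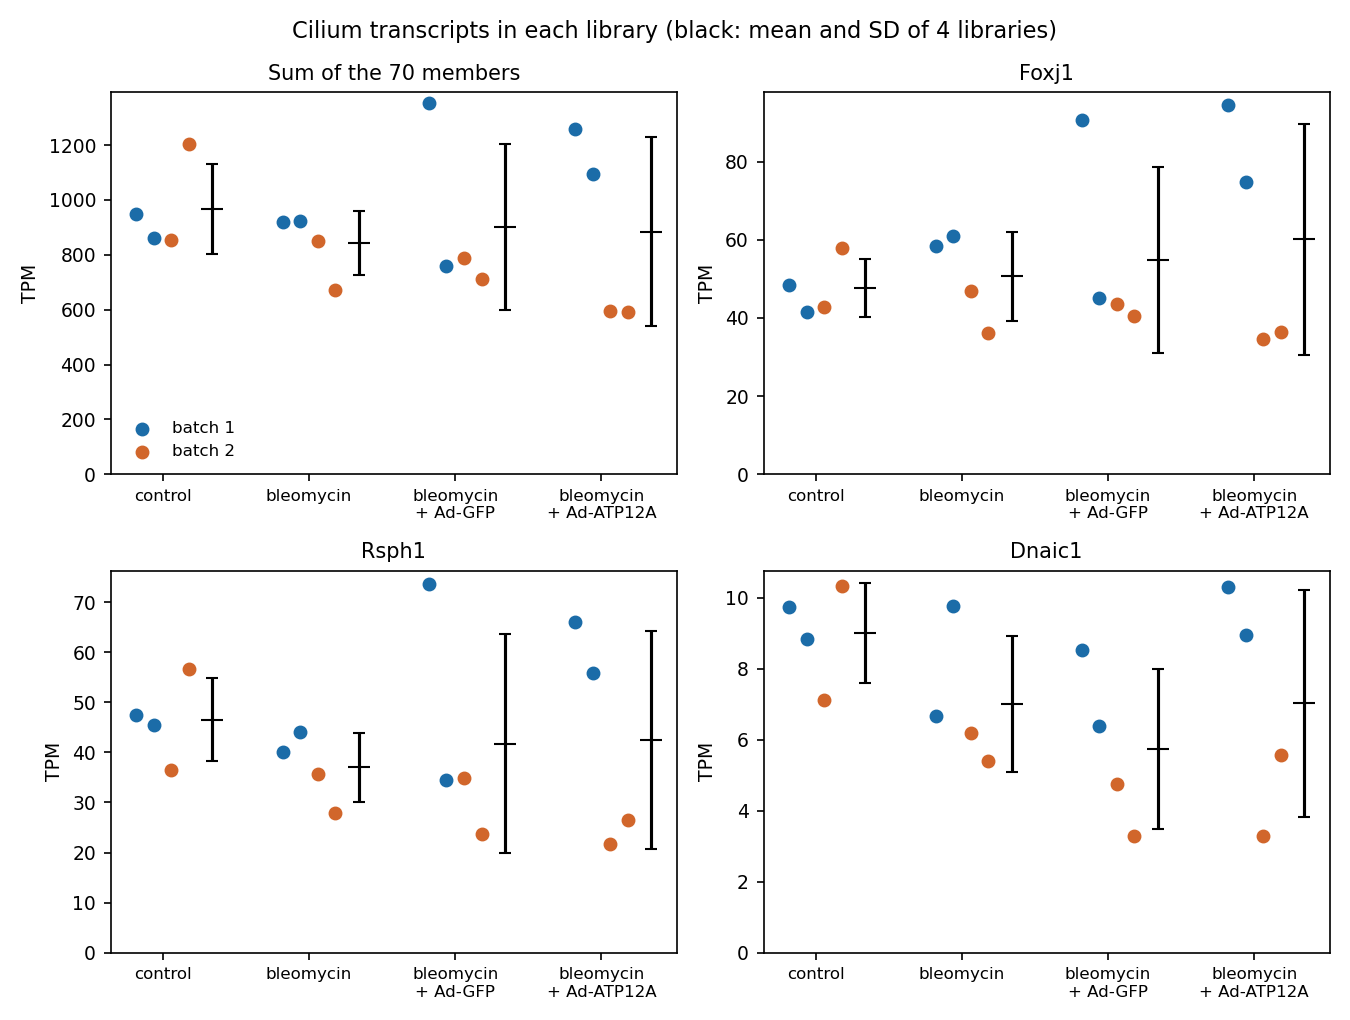
Levels in TPM (vertical axes, from 0) of the 70 members summed, Foxj1, Rsph1 and Dnaic1 in each of the 16 libraries, by group (horizontal axis) and batch (colour), with black marks for the mean and SD of 4 libraries. The Ad-ATP12A batch 1 libraries (1259 and 1094 TPM summed) sit far above the batch 2 libraries (595 and 590 TPM), while in the other groups single libraries such as Ad-GFP b1r1 (1353 TPM) stand out.

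Foxj1, the transcription factor, averaged 53.3 TPM over the 16 libraries. It was 48.4, 41.5, 42.8 and 57.8 TPM in control, 58.5, 61.1, 46.8 and 36.1 TPM in bleomycin lungs, 90.6, 45.1, 43.5 and 40.6 TPM in the Ad-GFP group, and 94.6, 74.8, 34.7 and 36.4 TPM in Ad-ATP12A. The highest libraries were Ad-ATP12A b1r1 and Ad-GFP b1r1, the lowest were Ad-ATP12A b2r1, bleomycin b2r2 and Ad-ATP12A b2r2, and every group overlapped with every other.

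Among the dynein heavy chains, the motor subunits, 13 of 15 passed the filter and their sum ranged from 40.2 TPM (Ad-ATP12A b2r2) to 128 TPM (control b2r2). The highest were Dnah6 and Dnah3, inner arm chains, with means of 11.8 and 10.1 TPM, then Dnah5 and Dnah9, outer arm chains, with 8.29 and 6.97 TPM. Dnah7a, Dnah7b and Dnah7c are near-identical copies among which reads may be split, so their separate values (5.95, 2.77 and 1.73 TPM) are uncertain. Of the intermediate chains, which anchor the outer arm, Dnaic2 averaged 12.4 TPM and Dnaic1 7.20 TPM. The assembly factors were Dnaaf3 (10.04 TPM), Dnaaf5 (9.82 TPM), Dnaaf2 (4.61 TPM) and Dnaaf1 (4.32 TPM). Dnah2os averaged 4.51 TPM and Dnah2 2.56 TPM. The sources used here do not state the strand of the counting, so reads of an antisense transcript and of an overlapping gene may not be separable.

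The nexin-dynein regulatory complex was represented by Drc3 (23.9 TPM), Drc1 (13.2 TPM) and Drc7 (9.41 TPM). Its sum was between 48.0 and 68.0 TPM in control and between 30.1 and 44.9 TPM in bleomycin, so these groups did not overlap, whereas both vector groups overlapped with control. The radial spoke genes were led by Rsph1, a spoke head protein, with 41.9 TPM, and Rsph3b with 40.4 TPM. Rsph3a (28.6 TPM) is a near-identical copy of Rsph3b, with the same uncertainty as the Dnah7 copies. Tektins were led by Tekt1 (17.7 TPM) and Tekt2 (14.1 TPM). Their sum was 50.05 to 62.9 TPM in control and 28.1 to 45.5 TPM in bleomycin, again without overlap, and it overlapped with control in both vector groups. The share of all genes without overlap between control and bleomycin was not counted. In that comparison no Drc or Tekt gene reached an unadjusted p under 0.05 in limma, as 33.5% of all genes did. The smallest limma adjusted p was 0.221 among Drc genes (Drc1) and 0.149 among tektins (Tekt2). Of the Cfap genes, Cfap126, a basal body protein, was the highest of all members (58.6 TPM), and Cfap20, Cfap36 and Cfap298 followed with 44.0, 43.1 and 40.6 TPM. Cfap20 and Cfap36 varied little, 1.51-fold and 1.61-fold from the lowest to the highest library, while Cfap46 varied 6.30-fold and Dnah8 6.81-fold.

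**Figure D2:**
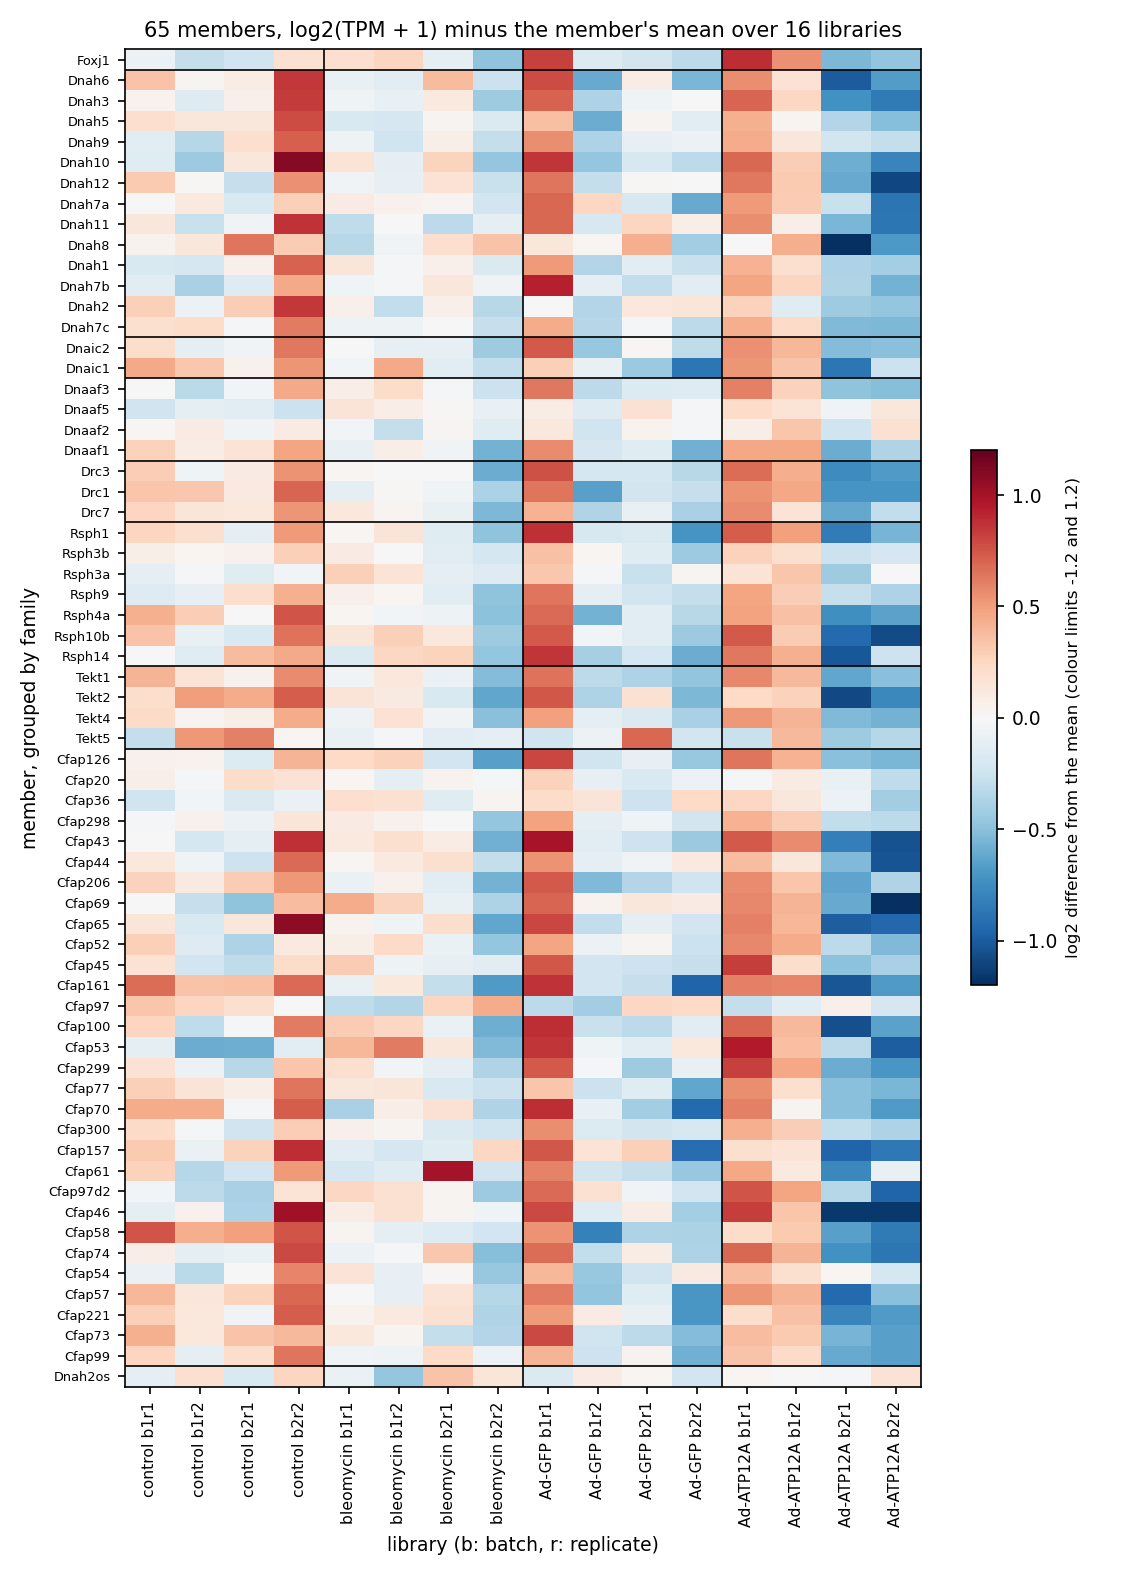
Log2(TPM + 1) of each of the 65 members that passed the filter, minus its mean over the 16 libraries (colour, red above and blue below, limits at -1.2 and 1.2), in rows grouped by family and with the libraries in columns by group, batch and replicate. Most rows are red together in control b2r2, Ad-GFP b1r1 and the Ad-ATP12A batch 1 libraries and blue together in the Ad-ATP12A batch 2 libraries, with Cfap97, Tekt5, Dnaaf5 and Dnah2os among the rows that differ.

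The comparison of bleomycin with control asks how the fibrosis model itself changed the cilium genes. No member passed an adjusted p of 0.05 (limma across 17003 genes, Benjamini-Hochberg, batch as a term), while 18.8% of all genes did. At an unadjusted p under 0.05 there were 4 of 65 members and 33.5% of all genes. The median log2 difference of the members was -0.23, with 55 of 65 below 0, and that of all genes was 0.05. The smallest adjusted p belonged to Cfap58, a coiled-coil protein of cilia and flagella. Its levels were 10.1, 7.93, 8.27 and 10.1 TPM in control and 5.75, 5.11, 4.90 and 4.62 TPM in bleomycin. These levels did not overlap, but the log2 difference of -0.72 ± 0.26 (SE) had an adjusted p of 0.0639 in limma. Tekt2, a tektin of the doublet wall, was 15.4, 19.0, 18.3 and 22.4 TPM in control and 14.8, 14.3, 11.5 and 8.18 TPM in bleomycin, with a log2 difference of -0.61 ± 0.28 (limma adjusted p 0.149). Foxj1 differed by 0.07 ± 0.25 (limma adjusted p 0.879). Cfap161, a protein of the doublet lumen, differed by -0.74 ± 0.29 (limma adjusted p 0.0894). The count of 0 was 1, with that member lower, when either batch 1 library of the Ad-GFP group was left out of the fit.

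With Ad-GFP added to bleomycin, 1 member of 65 was called against control and 13.7% of all genes were. Cfap58 was lower: at 8.59, 2.75, 4.08 and 4.06 TPM in Ad-GFP, its level overlapped with control only through Ad-GFP b1r1, and the log2 difference was -0.87 ± 0.26 (limma adjusted p 0.0400). The call was lost in 15 of 28 alternatives, in which the limma adjusted p ranged from 0.0140 to 0.220. It was lost when any control library, either bleomycin batch 1 library, bleomycin b2r2 or any Ad-GFP library other than b1r1 was left out, and 2 members were called without Ad-ATP12A b2r1. The median over members was -0.16, with 53 of 65 below 0, beside 0.03 for all genes. It was 0.05 without control b2r2. Foxj1 differed by 0.13 ± 0.25 (limma adjusted p 0.760) and Dnaic1, the outer arm intermediate chain, by -0.62 ± 0.21 (limma adjusted p 0.0659).

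With Ad-ATP12A, 2 members of 65 were called against control and 22.8% of all genes were. Cfap58, at 6.68, 7.20, 3.19 and 2.66 TPM in Ad-ATP12A, was below every control library, with a log2 difference of -0.85 ± 0.26 (limma adjusted p 0.0304). Dnaaf5, an assembly factor, was 8.12, 8.96, 8.84 and 8.01 TPM in control and 11.5, 11.1, 9.45 and 10.8 TPM in Ad-ATP12A. It was thus higher in every Ad-ATP12A library, by 0.30 ± 0.10 on the log2 scale (limma adjusted p 0.0437). Dnaaf5 was also above every control library in bleomycin alone, at 10.99, 10.41, 9.87 and 9.14 TPM. The log2 difference from control was 0.23 in bleomycin (limma adjusted p 0.133) and 0.21 in Ad-GFP (0.179). The Cfap58 call was lost in 9 of 28 alternatives (limma adjusted p 0.0117 to 0.587) and the Dnaaf5 call in 19 of 28 (0.0343 to 0.339). No member was called without control b2r1 or without Ad-ATP12A b2r2, and 1 was called when any other control library, either bleomycin batch 1 library, bleomycin b2r1, Ad-GFP b2r2 or Ad-ATP12A b2r1 was left out. Without the 3 libraries low in Scgb1a1, 0 were called. Tekt2 had a log2 difference of -0.81 ± 0.28 (limma adjusted p 0.0541). The median over members was -0.29, with 53 of 65 below 0, beside 0.00 for all genes. These 3 comparisons share the 4 control libraries, so their directions are not independent of each other.

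The 2 remaining contrasts separate the vector from bleomycin and the ATP12A insert from the vector. Between Ad-GFP and bleomycin no member was called, at 0.0118% of all genes, and none reached an unadjusted p under 0.05 in limma, as 1.69% of all genes did. The median was 0.05, and -0.10 without Ad-GFP b1r1. Between Ad-ATP12A and Ad-GFP no member was called either, at 0.00588% of all genes, with none at an unadjusted p under 0.05 in limma (2.43% of all genes). The median was -0.03, and it turned to 0.11 without Ad-GFP b1r1 and to 0.07 without either Ad-ATP12A batch 2 library. Foxj1 differed by 0.08 ± 0.25 between the vectors and Dnah11, an outer arm heavy chain, by -0.40 ± 0.30 (limma adjusted p 0.999 for both).

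More members were called between the batches than between any groups. In the fit over all groups, 11 members were lower in batch 2 and none higher, while 2.11% of all genes were called lower and 16.4% higher. The median over members was -0.36, with 60 of 65 below 0, and that over all genes was 0.09. At an unadjusted p under 0.05 there were 32 of 65 members and 34.6% of all genes. Dnaic1 differed most clearly, with a log2 difference of -0.57 ± 0.15 (limma adjusted p 0.0215). Cfap52, a protein inside the doublets, differed by -0.47 ± 0.13 (limma adjusted p 0.0277), Cfap161 by -0.72 ± 0.21 (0.0297), Rsph1 by -0.63 ± 0.19 (0.0362), Cfap126 by -0.56 ± 0.17 (0.0374) and Foxj1 by -0.55 ± 0.18 (0.0457). Cfap299, Dnah7a, Rsph3a, Cfap97d2 and Cfap73 completed the 11. This count moved strongly with single libraries. It was 0 without bleomycin b1r2, Ad-GFP b1r1 or Ad-ATP12A b1r1, where 0.585% to 0.744% of all genes were lower. It was 1 without bleomycin b2r2, Ad-GFP b2r2 or any of the 3 other Ad-ATP12A libraries (0.792% to 1.31% of all genes lower). It was 4 or 5 without control b2r1, bleomycin b1r1 or Ad-GFP b2r1 (1.21% to 2.47%). It rose to 22 without control b1r2 (2.94%) and to 31 (1 higher) without control b2r2 (4.53%). Without the 3 libraries low in Scgb1a1 it was 0, and 0% of all genes were lower. Under quantile normalization, which shifted the median of all genes by -0.10, 22 members and 5.95% of all genes were lower and the calls over all genes were 1103 higher and 1012 lower, in place of 2783 and 358.

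The order of the batches was also counted within each group. Counting members for which both batch 1 libraries exceeded both batch 2 libraries, control had 1 of 65 (11.7% of all genes), bleomycin 33 (16.6% of all genes), Ad-GFP 20 (13.9% of all genes) and Ad-ATP12A 62 (28.7% of all genes). The 3 exceptions in Ad-ATP12A were Cfap97, Dnaaf2 and Dnah2os. The opposite order held for 11 members in control (25.8% of all genes), 4 in bleomycin (43.5% of all genes), 2 in Ad-GFP (34.5% of all genes) and 0 in Ad-ATP12A (36.4% of all genes). Batch contrasts within each group, chosen after these values were seen, called 0 members in control (0.00588% of all genes; 1 member and 7.16% of all genes at an unadjusted p under 0.05 in limma), 1 in bleomycin (7.48% of all genes) and 3 in Ad-GFP (11.5% of all genes). In Ad-ATP12A they called 37 members, all lower in batch 2, where 7.06% of all genes were called lower. Cfap97 was the member called in bleomycin, higher in batch 2 by 0.68 (limma adjusted p 0.0205). In Ad-GFP, Cfap97 was higher by 0.61 (limma adjusted p 0.0188), and Dnah7a and Rsph3b were lower by -0.87 and -0.48 (0.0467 and 0.0481).

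Within Ad-ATP12A the lower members came from every family other than the antisense transcript: Foxj1, 4 of 13 heavy chains, 1 of 2 intermediate chains, 2 of 4 assembly factors, 2 of 3 Drc genes, 5 of 7 radial spoke genes, 3 of 4 tektins and 19 of 30 Cfap genes. Rsph1 was 65.9 and 55.9 TPM in batch 1 and 21.6 and 26.5 TPM in batch 2, a log2 difference of -1.31 ± 0.32 (limma adjusted p 0.0256). Drc3 was 36.9 and 31.1 TPM in batch 1 and 13.1 and 13.8 TPM in batch 2, a difference of -1.27 ± 0.29 (0.0218). Foxj1 differed by -1.22 ± 0.27 (0.0202), Tekt4 by -1.02 ± 0.23 (0.0202) and Dnaic1 by -1.0005 ± 0.26 (0.0301). The groups of 2 libraries did not overlap for any of these. Dnaaf5 (-0.14 ± 0.13, limma adjusted p 0.470) and Cfap97 (0.14 ± 0.13, limma adjusted p 0.467) did not pass. Each side held only 2 libraries. Leaving out any Ad-ATP12A library left 1 on its side, which was then assumed to vary like those of the other groups. Calls fell in those fits among the members and among all genes, and their counts are not given. Over 23 alternatives the log2 difference ranged from -1.45 to -1.17 for Rsph1, -1.39 to -1.15 for Drc3 and -1.39 to -1.05 for Foxj1. The count of 37 was 23 without any batch 1 library of control or bleomycin, settings in which 4.9% to 4.92% of all genes were lower.

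The interaction contrasts asked whether a treatment difference itself differed between batches. For bleomycin against control no member was called (0.0647% of all genes), with 2 of 65 members and 19% of all genes at an unadjusted p under 0.05 in limma. Cfap97 came closest, at 0.88 ± 0.19 (limma adjusted p 0.0637). Without control b2r1 a single library stood for control in batch 2, so the count of that fit is not given. For Ad-ATP12A against Ad-GFP no member and no gene was called (0% of all genes), with 6 of 65 members and 6.29% of all genes at an unadjusted p under 0.05 in limma. Another interaction, Ad-ATP12A against control, was added after the values were seen. It too called no member (2.8% of all genes), with 52 of 65 members and 26.8% of all genes at an unadjusted p under 0.05 and a smallest limma adjusted p of 0.0577. The median over members was -1.17, beside 0.00 for all genes. Foxj1 had an interaction of -1.37 ± 0.38 (limma adjusted p 0.0677) and Drc3 one of -1.47 ± 0.41 (0.0680). Members were called lower without the 3 libraries low in Scgb1a1 and without control b2r1. In both settings control b2r2, with the highest member sum in control (1203 TPM), alone stood for control in batch 2. The counts in these settings are therefore not read as an interaction. Without control b2r2, control b2r1 alone stood there, and fewer of all genes were called lower. Without Ad-GFP b1r1 28 members were lower (4.54% of all genes), without Ad-GFP b1r2 28 (4.56%) and without either Ad-GFP batch 2 library 2 (2.18%). Other settings lowered the calls. With all libraries 304 of 17003 genes were lower, but without bleomycin b1r1 or b1r2 only 0.0354% or 0.0295% of all genes were. Neither the Ad-GFP nor the bleomycin libraries enter this contrast itself.

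Batch by batch, the median log2 difference between Ad-ATP12A and control was 0.32 in batch 1, with 58 of 65 members higher, and -0.87 in batch 2, with 63 lower. Between Ad-GFP and control it was 0.14 in batch 1 (43 higher) and -0.50 in batch 2 (59 lower). For bleomycin against control it was -0.07 in batch 1 (37 lower) and -0.45 in batch 2 (59 lower). Ad-ATP12A against Ad-GFP gave 0.25 in batch 1 (59 higher) and -0.31 in batch 2 (61 lower), and Ad-GFP against bleomycin 0.13 (53 higher) and -0.02 (35 lower). In the comparisons of either vector group with control, and of the vector groups with each other, the medians of the batches had opposite signs. Those of Ad-GFP against bleomycin did too, with a batch 2 median of only -0.02. Each side of a comparison by batch held 2 libraries. In batch 1, Ad-GFP b1r1 had a member sum of 1353 TPM. Ad-GFP b1r2 had 758 TPM, below both controls (949 and 862 TPM) and both bleomycin libraries (919 and 922 TPM). The positive batch 1 medians of Ad-GFP against control and against bleomycin therefore leaned on b1r1. Medians by batch without the libraries low in Scgb1a1 are not given. In batch 2 alone, 19 of 65 members were called lower in Ad-ATP12A than in control, as were 6.48% of all genes tested there.

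**Figure D3:**
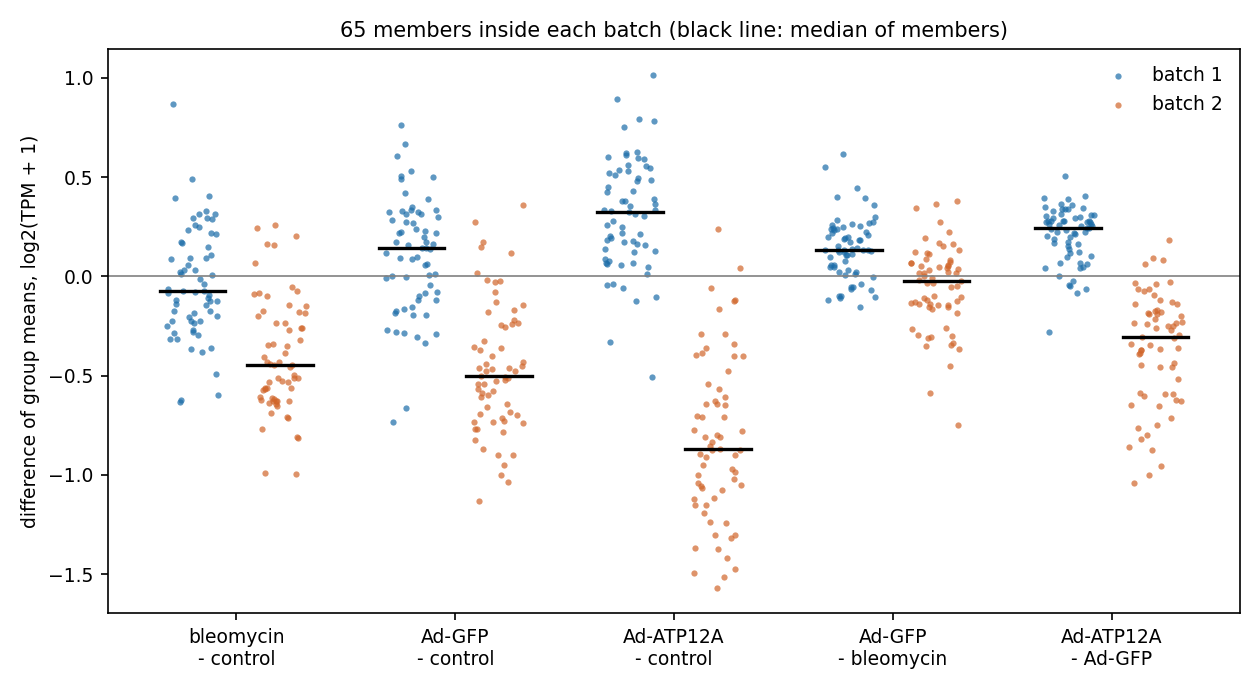
Difference of group means on the log2(TPM + 1) scale (vertical axis) for each of 65 members (points) in batch 1 (blue) and batch 2 (orange), for 5 group comparisons (horizontal axis), with black lines at the medians. For Ad-ATP12A against control the medians are 0.32 in batch 1 and -0.87 in batch 2, and for Ad-GFP against bleomycin they are 0.13 and -0.02.

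The members moved together from library to library. Over the 16 libraries, the correlation of each member with the mean z-score of the other members had a median Pearson r of 0.90 and a median Spearman rho of 0.89, and 49 of 65 reached an r of 0.8. Among the 16938 other genes tested, 3.28% reached 0.8. These are descriptions, since the points share libraries, batches and scaling. Drc3 followed the rest most closely (0.98), then Cfap43, Dnaic2, Cfap65 and Cfap74 (each 0.97), and Foxj1 had 0.87. Leaving out Ad-ATP12A b2r1 and Ad-GFP b1r1, the libraries farthest from the median, gave a median r of 0.86. Deviations from the mean of each group and batch gave 0.89, so shared movement was present between libraries of some groups and batches. The mean z-scores differed most in Ad-GFP batch 1 (1.33 and -0.54), control batch 2 (0.02 and 1.16) and bleomycin batch 2 (0.04 and -0.74). In Ad-ATP12A batch 2 they were close (-1.30 and -1.28). Each of the first 3 pairs holds a library low in Scgb1a1, and r without those libraries is not given. The members under 0.5 were Dnaaf2 (0.45), Cfap36 (0.36), Tekt5 (0.15), Dnaaf5 (0.05), Dnah2os (-0.09) and Cfap97 (-0.28).

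The members with GTTGCC in the promoter window had a median r of 0.91 (22 members) and those without it 0.89 (29 members), and of the 4 printed above Cfap298 and Cfap161 had 0.91, Tekt2 0.88 and Cfap58 0.81. Dnaaf2 and Dnaaf5, 2 of the 6 members under 0.5, also hold GTTGCC.

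**Figure D4:**
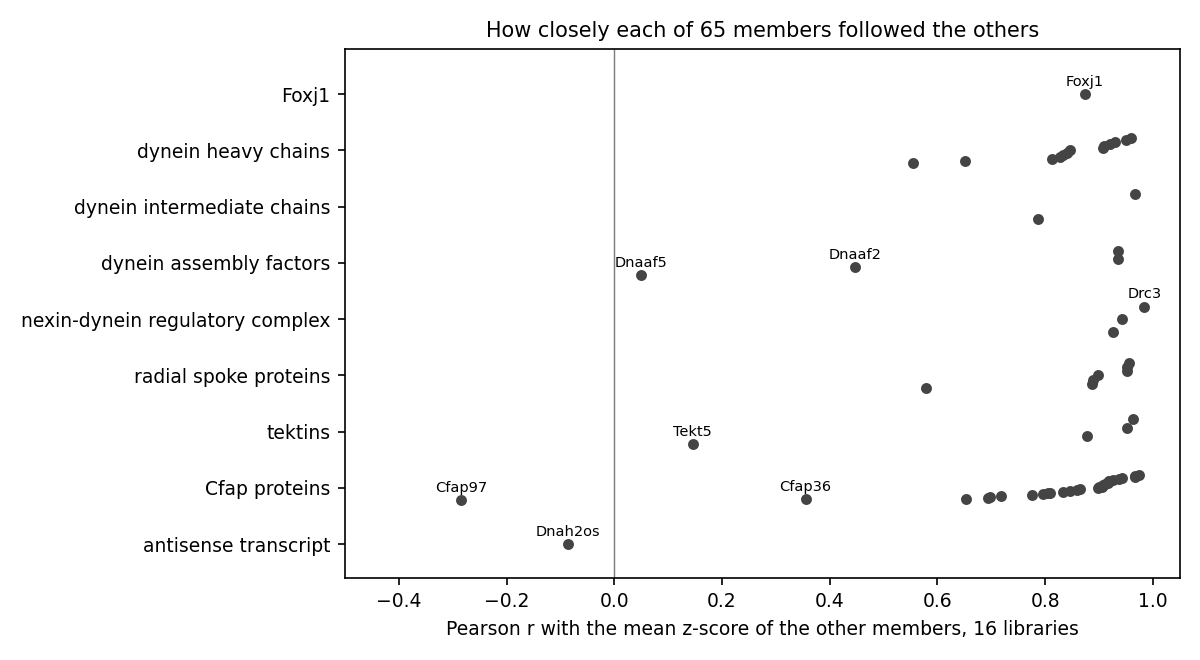
Pearson r over 16 libraries (horizontal axis) of each of 65 members (points) with the mean z-score of the other members, by family (vertical axis). Most points lie above 0.8, Drc3 is the highest at 0.98, and the 6 named members below 0.5 come from the assembly factors, tektins, Cfap genes and the antisense transcript.

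Outside the families, the 5 genes whose levels followed the members most closely were Kndc1 (0.99), Casc1 (0.99), Ttc25 (0.98), Lrrc36 (0.98) and Adgb (0.98). Ttc25 is a docking component of outer dynein arms. Genes listed for the motile cilium under other names followed the members too: 49 of 57 tested reached an r of 0.8, with a median of 0.92. Of those 57, 1 was called against control in bleomycin (18.8% of all genes), 0 in Ad-GFP (13.7%) and 1 in Ad-ATP12A (22.8%). In Ad-GFP 2 were at an unadjusted p under 0.05 in limma, as were 30.1% of all genes. Lower in batch 2 were 11 over all groups (2.11% of all genes) and 39 within Ad-ATP12A (7.06%). The gene called against control was Tppp3, a microtubule-binding protein of ciliated cells. It was 390, 432, 441 and 441 TPM in control, 203, 226, 267 and 146 TPM in bleomycin lungs, 382, 174, 285 and 131 TPM in the Ad-GFP group, and 288, 336, 119 and 127 TPM in Ad-ATP12A. Every treated library was below every control library, with log2 differences of -1.05 ± 0.33 in bleomycin (limma adjusted p 0.0391), -0.93 ± 0.33 in Ad-GFP (0.0739) and -1.12 ± 0.33 in Ad-ATP12A (0.0265).

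Genes of intraflagellar transport and the BBSome, which serve primary cilia as well, followed the members less closely, with a median r of 0.54 over 34 genes and 8 at 0.8 or more. Of these 34, 1 was called lower than control in bleomycin, 1 in Ad-GFP and 2 in Ad-ATP12A, and none higher. Among all 17003 genes, 954, 768 and 1613 were called lower in these comparisons. Bbs4, a BBSome subunit, was lower than control in all 3 treated groups (-0.33, -0.34 and -0.44 on the log2 scale, limma adjusted p 0.0416, 0.0424 and 0.00939), and Arl13b, a small GTPase of the ciliary membrane, was lower in Ad-ATP12A (-0.42, 0.0126). Between batches within Ad-ATP12A, 6 of the 34 were lower in batch 2 and 1 was higher, beside 1200 lower and 1647 higher among all 17003 genes. The upstream regulators of multiciliated cells had a median r of 0.75 over 11 genes. Among them Foxa1, a forkhead factor of airway epithelium, was lower than control in bleomycin and Ad-ATP12A (-0.74 and -0.73, limma adjusted p 0.0352 and 0.0326), and Foxa1, Deup1 and Rfx2 were lower in batch 2 within Ad-ATP12A (-0.96, -0.85 and -0.51, limma adjusted p 0.0315, 0.0447 and 0.0380).

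Markers of other lung cells moved beside the members in part. The alveolar type 2 list, led by Sftpc and with 9 of 9 genes averaging at least 1 TPM, summed to between 26336 and 37335 TPM in control. It ranged from 13028 to 33053 TPM in the bleomycin group, from 8230 to 39915 TPM in the Ad-GFP group and from 7798 to 36687 TPM in the Ad-ATP12A group. It was 21856 and 36687 TPM in the Ad-ATP12A batch 1 libraries and 7798 and 11656 TPM in those of batch 2, and its genes had a median r of 0.53 with the members. The club cell list, with 11 of 11 genes averaging at least 1 TPM, summed to between 19856 and 133673 TPM in control. It ranged from 8158 to 78236 TPM in the bleomycin group, from 22835 to 40796 TPM in the Ad-GFP group and from 32033 to 68561 TPM in the Ad-ATP12A group. The lowest sum in control, bleomycin and Ad-GFP was in each case that of a library low in Scgb1a1. Scgb1a1 made up most of the sum in the other libraries, so these ranges do not describe the rest of the list. The genes of the club cell list had a median r of 0.72. Among them Cyp2f2 was 1060 and 1229 TPM in the Ad-ATP12A batch 1 libraries and 383 and 648 TPM in batch 2. The goblet and gland list summed to 722 and 781 TPM in batch 1 and to 251 and 289 TPM in batch 2 of that group. Clca1 alone was 200 and 374 TPM in batch 1 and 10.85 and 64.9 TPM in batch 2. Of the 10 genes, 8 had a log2 difference below 0 there and 2 above 0. Their median r with the members was 0.37 (-0.51 to 0.56), and control b2r2 had the lowest sum of the series (71.3 TPM). The alveolar type 1 list, with a median r of 0.40, summed in Ad-ATP12A to 3323 and 3864 TPM in batch 1 and to 2504 and 3062 TPM in batch 2. The general epithelial list had a median r of -0.01. Neuroendocrine genes summed to at most 29.6 TPM, basal cell genes to at most 5.84 TPM and airway cartilage genes to at most 4.5 TPM in any library. The part of these cell types, of Atp12a level and of depth in the member differences was not tested. The libraries low in Scgb1a1 did not share a level of the members: Ad-GFP b1r1, with 295 TPM of Scgb1a1, had the highest member sum of the series, and control b2r1 and bleomycin b2r2 had 855 and 674 TPM.

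**Figure D5:**
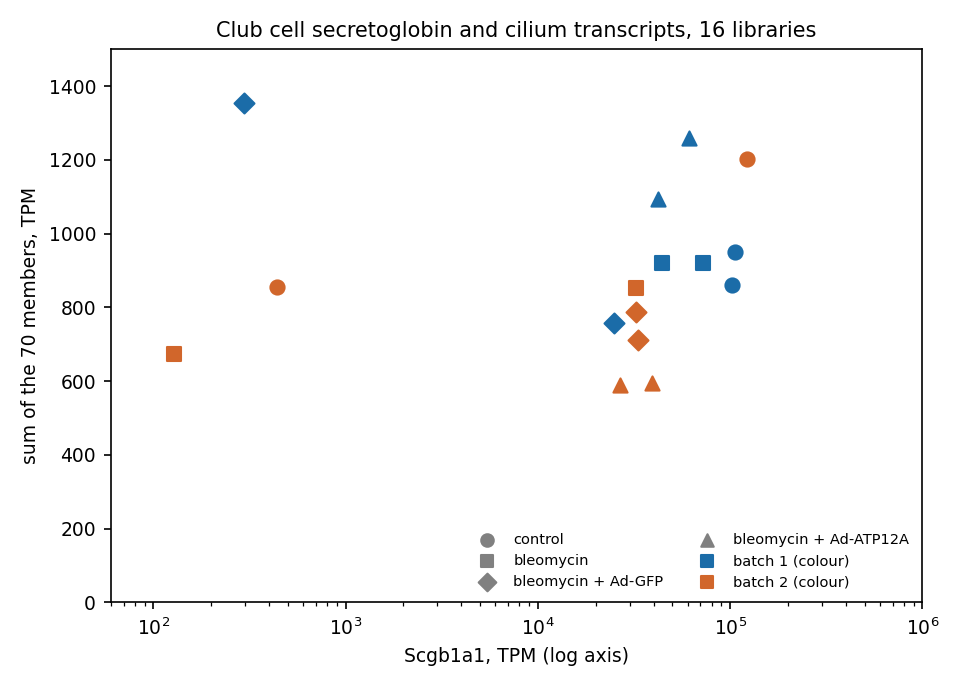
Sum of the 70 members in TPM (vertical axis, from 0) against Scgb1a1 in TPM (horizontal log axis) in each of 16 libraries, with the group as the marker shape and the batch as the colour. The 3 libraries under 1000 TPM of Scgb1a1 span member sums of 674 to 1353 TPM, and the others span 590 to 1259 TPM.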

How the data were processed

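RNA from mouse lung was purified with a column kit (RNeasy mini plus) and 0.6 ug of total RNA went into each library, per the labels' protocols. STAR, RSEM and the build GRCm39 (mm39) are named in the submitters' processing notes, without versions or roles. The deposited values are log2 of TPM plus 1, as the file and its values show: turned back, each column sums to 999999.12 to 1000000.82 TPM in steps of 0.01. The table held no columns of other samples.

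Symbols were joined from GENCODE M21 (GRCm38), with 52093 of 53647 identifiers matched. The 17003 genes that reached 1 TPM in 4 or more libraries were fitted with limma 3.58.1 in R 4.3.3 (trended variance, two-sided, 4 group means and batch; 8 group-by-batch means for interactions) with Benjamini-Hochberg adjustment at 0.05 over all genes, after the script was tested on simulated data. Groups, batches and replicate numbers came from the titles. Likeness and promoter matches are descriptions. The protein table was not used here.

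Named members were Foxj1, up to 4 of highest mean TPM per family, up to 10 called members per comparison (3 of smallest p where none was called), and the highest and lowest member; from other lists, up to 4 of highest mean TPM or smallest p. Other members were named after their values were seen. Members and lists were chosen with earlier results of these data known. Alternatives covered the pseudocount, the filter, scaling, the samples and terms of the fit, each library left out, the 3 libraries low in Scgb1a1, each batch alone and another symbol table.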

Additional observations from a re-analysis of the deposited data

Results flagged for a closer look

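Single libraries far from the other 3 of their group were looked for in 188 sets of 4 libraries (named members and family sums in each group), and 17 were found. Chance flags about 1 in 20, and the sets are not independent, since the members move together. Of the 17, 9 came from Ad-GFP b1r1, 3 from control b2r2 and 2 from bleomycin b2r2.

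Ad-GFP b1r1 lay above the rest of its group in the summed level of all members (1353.1 TPM against at most 786.72), the sum of the Cfap genes (681.51 TPM against at most 397.94) and that of the nexin-dynein regulatory complex (72.02 TPM against at most 38.57). The single genes were Foxj1 (90.55 TPM), Dnaaf3 (15.59 TPM), Drc3 (39.43 TPM), Rsph9 (36.24 TPM), Tekt1 (27.07 TPM) and Cfap69 (28.38 TPM). The same library had 295 TPM of Scgb1a1, and the part of whatever sets it apart was not tested.

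Control b2r2 was high in Dnah3 (17.89 TPM), Dnah5 (14.56 TPM) and the tektin sum (62.91 TPM). Bleomycin b2r2 was low in Drc3 (14.72 TPM) and in the sum of the nexin-dynein regulatory complex (30.08 TPM). Dnah5 was high in bleomycin b2r1 (8.25 TPM), and Tekt5 was high in Ad-GFP b2r1 (5.44 TPM) and in Ad-ATP12A b1r2 (4.22 TPM).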

How the results depend on the processing

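Counts of members called changed with many settings, and the causes were not tested. For bleomycin against control, 0 became 1 under quantile normalization, median-ratio scaling or batch 1 alone and 3 with the 2 groups alone. For Ad-GFP against control, 1 became 0 with no filter, with the 2 groups alone, with no batch term or in batch 2 alone. For Ad-ATP12A against control, 2 became 0 with no filter, with no batch term or without the 3 libraries low in Scgb1a1, 1 with the 2 groups alone and 19 in batch 2 alone. The batch count of 11 became 1 with no filter, 22 under quantile normalization (5.95% of all genes lower) and 19 under median-ratio scaling (4.63%). Without the 3 libraries it was 0, and 0% of all genes were lower. The interactions, each 0, became 1 for bleomycin against control with a filter at a mean of 5 TPM or median-ratio scaling, 1 for Ad-ATP12A against Ad-GFP without the 3 libraries, and for Ad-ATP12A against control 3 with that filter and 47 without the 3 libraries. Without the 3 libraries, control b2r2 alone stood for control in batch 2, and Ad-GFP b1r2 alone for Ad-GFP in batch 1. The interaction counts of that setting rest on single libraries and are not read as an interaction. With the filter at a mean of 5 TPM, 3.17% of all genes were lower in the interaction of Ad-ATP12A against control. Batch counts within groups became, with no filter, 1 in Ad-GFP (from 3) and 7 in Ad-ATP12A (from 37). Without the 3 libraries, bleomycin and Ad-GFP lost their calls, but each then held a single library in 1 batch.

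With each library left out in turn, the counts ranged from 0 to 1 for bleomycin against control, 0 to 2 for Ad-GFP against control, 0 to 3 for Ad-ATP12A against control, 0 to 31 for batch, 0 to 1 for the bleomycin interaction, 0 to 28 for the Ad-ATP12A against control interaction, and, within groups, 0 to 1 in bleomycin, 0 to 14 in Ad-GFP (14 without Ad-GFP b1r2; 0 without b1r1 or b2r2; 1 without either batch 1 library of control or Ad-ATP12A or any bleomycin library) and 0 to 50 in Ad-ATP12A. The bleomycin count of 1 became 0 without any bleomycin library. No member was called between Ad-GFP and bleomycin or between Ad-ATP12A and Ad-GFP, or between batches within control, under any setting run.

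Over all genes, the calls for bleomycin against control were 2247 higher and 954 lower, and 1747 and 1709 under quantile normalization; for Ad-GFP against control 1558 and 768, and 1296 and 1360; for Ad-ATP12A against control 2261 and 1613, and 1992 and 2345. Of 933 pairs of a called named member and an alternative, 335 lost the call and 0 changed direction. Deviations of same-numbered libraries of a batch had an r from -0.16 to 0.21 in 12 pairs, 1 of them over 0.1. The labels do not say what the replicate numbers mean. With 2 libraries per group and batch, these values cannot settle whether libraries were paired. Under the replicate block, 1 member was called between Ad-ATP12A and control and the counts of the other group comparisons did not change. The files give no depth, so what it limits is unknown.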
